A study of Mus musculus with 60 samples.

Results

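The 9 genes described here belong to phosphoinositide 3-kinase (PI3K) signalling and were followed through the activation of mouse CD8 T cells with and without the adaptor gene Sh2b3. The set was chosen by name: every row of the count table whose Ensembl identifier maps to 1 of 9 genes, namely the catalytic subunits Pik3ca, Pik3cd and Pik3cg, the regulatory subunits Pik3r1 and Pik3r5, the inhibitor Pik3ip1, the lipid phosphatase Inpp5d, and the kinases Akt1 and Akt2. All 9 were found among the 55414 genes of the table. The measurement was sequencing of poly(A) RNA, counted per gene. Cells were splenic naive CD8 T cells of NOD mice carrying the OT-I T cell receptor transgene, enriched by negative selection, and were either Sh2b3-/- (knockout) or Sh2b3+/+ (wild type). The series compares the genotypes at rest, early and late after T cell receptor stimulation, and late with IL-2 blocked. Stimulated cells received soluble anti-CD28 at 5 µg/mL over a coat of anti-CD3 at 10 µg/mL, and unstimulated cells are the 0 h group. At 0 h there were 11 knockout and 11 wild-type libraries. At 2 h, 6 h and 24 h there were 5 knockout and 5 wild-type libraries each. At 24 h with blocking anti-IL-2 at 10 µg/mL there were 4 knockout and 4 wild-type libraries. The labels do not say whether libraries of a group came from separate mice or cultures, so the p-values measure the spread between these libraries, which may be technical. The transgenic receptor, the NOD background and the enrichment are shared by all groups, and in a bulk sample fewer cells of a type and less RNA per cell cannot be told apart.

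Class I PI3K adds a phosphate to a membrane lipid to make PIP3, which draws AKT and Tec-family kinases to the membrane. The catalytic subunit p110δ, encoded by Pik3cd, is the form best known in lymphocytes, where it acts downstream of the antigen receptor, CD28 and cytokine receptors in complex with p85-type regulatory subunits, of which Pik3r1 encodes the founding member. The p110γ subunit, encoded by Pik3cg, pairs with p101, encoded by Pik3r5, and answers to G protein-coupled receptors. SHIP-1, encoded by Inpp5d, removes a phosphate from PIP3, and active AKT keeps FOXO transcription factors out of the nucleus.

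The 60 libraries held 13987029 to 35476519 counts, with a median of 17994613. Sh2b3 itself averaged 13.7 ± 3.21 CPM (counts scaled to a common library total) in knockout and 80.4 ± 8.03 CPM in wild-type libraries at 0 h (SD, n = 11 each), and the highest knockout library lay under the lowest wild-type library in all 5 genotype comparisons, where the knockout mean was 14.8 to 20.9% of the wild-type mean. The 5 CD8 T cell markers Cd8a, Cd8b1, Cd3e, Cd3d and Trac summed to 4071 to 4743 CPM in knockout and 3862 to 4798 CPM in wild-type libraries at 0 h, and to 1777 to 2315 CPM in knockout and 1805 to 2103 CPM in wild-type libraries at 2 h. The 6 B cell markers summed to 658 to 983 CPM in knockout and 706 to 922 CPM in wild-type libraries at 0 h and to 174 to 372 CPM in knockout and 274 to 333 CPM in wild-type libraries at 2 h, with 24 h sums of 286 to 474 CPM in knockout and 399 to 721 CPM in wild-type libraries. Nearly all of that sum was Ighm, and no group averaged more than 5.33 CPM of Cd79a, Ms4a1 or Ebf1. The 3 gamma delta T cell markers summed to 254 to 663 CPM in knockout and 416 to 806 CPM in wild-type libraries at 0 h, and to 74.3 to 105 CPM in knockout and 112 to 132 CPM in wild-type libraries at 24 h with anti-IL-2. At 24 h without it they summed to 93.4 to 182 CPM in knockout and 199 to 301 CPM in wild-type libraries. The 3 NK cell markers at 24 h summed to 32.3 to 117 CPM in knockout and 17.99 to 54.8 CPM in wild-type libraries. The monocyte, neutrophil and platelet lists averaged at most 6.67 CPM in any group. The 4 erythroid markers summed to 9.28 to 131 CPM in knockout and 10.1 to 70.9 CPM in wild-type libraries at 0 h. At 24 h they summed to 5.67 to 148 CPM in knockout and 2.87 to 123 CPM in wild-type libraries. The 3 markers of CD4 and regulatory T cells summed to 2.01 to 17.6 CPM in knockout and 4.65 to 11.5 CPM in wild-type libraries at 0 h, 19.1 to 25.6 CPM in knockout and 17.4 to 22.3 CPM in wild-type libraries at 2 h and 18.4 to 61.5 CPM in knockout and 12.3 to 70.8 CPM in wild-type libraries at 24 h, most of it Ctla4, with group means of Cd4 and Foxp3 of at most 1.48 CPM. The 4 dendritic cell markers summed to 0.236 to 2.32 CPM in knockout and 0.217 to 2.88 CPM in wild-type libraries at 0 h, 6.12 to 17.7 CPM in knockout and 11.1 to 13.9 CPM in wild-type libraries at 2 h and 3.17 to 4.85 CPM in knockout and 2.08 to 4.39 CPM in wild-type libraries at 24 h, and group means of Flt3 and Siglech were at most 0.415 CPM. Malat1, a nuclear RNA, averaged 0.114% of counts in knockout and 0.115% in wild-type cells at 0 h, 0.186% in knockout and 0.16% in wild-type cells at 2 h, and 0.0462% in knockout and 0.0495% in wild-type cells at 24 h. The part of these lists and of Malat1 in the results that follow was not tested. The numbers in the library names fall into 4 runs, called sets A to D here, which the labels do not describe. All 2 h and 6 h libraries are in set A, the 24 h libraries without anti-IL-2 are in sets B and C, the 0 h libraries are in sets A, B and C, and the anti-IL-2 libraries alone make up set D. At 0 h Malat1 took 0.147 to 0.209% of counts in knockout and 0.170 to 0.239% in wild-type libraries of set A. In sets B and C it took 0.0310 to 0.0759% in knockout and 0.0404 to 0.0556% in wild-type libraries. Its 0 h means thus mix these ranges, while its 2 h means come from set A and its 24 h means from sets B and C.

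At rest, Pik3cd was by far the most abundant member, with 219 ± 14.3 CPM per kb of exon in knockout and 203 ± 13.0 CPM per kb in wild-type cells (SD, n = 11 each). Pik3r5 followed with 43.1 ± 5.62 CPM per kb in knockout and 42.2 ± 4.14 in wild-type cells. Akt1 came next with 37.9 ± 3.24 CPM per kb in knockout and 37.9 ± 2.92 in wild-type cells, and Pik3ip1 with 35.3 ± 2.83 in knockout and 35.4 ± 4.27 in wild-type cells. The libraries of these 3 neighbours overlapped, as did those of Akt2, Inpp5d and Pik3r1. Akt2 had 23.5 ± 2.45 CPM per kb in knockout and 23.6 ± 1.91 in wild-type cells, Inpp5d 20.8 ± 2.63 in knockout and 20.0 ± 1.27 in wild-type cells, and Pik3r1 19.9 ± 1.97 in knockout and 21.6 ± 2.77 in wild-type cells. Pik3cg and Pik3ca were lowest and overlapped. Pik3cg had 10.8 ± 1.60 CPM per kb in knockout and 9.41 ± 0.463 in wild-type cells, and Pik3ca 9.89 ± 0.977 in knockout and 10.2 ± 0.933 in wild-type cells. In both genotypes gaps without overlap separated Pik3cd from Pik3r5, Pik3ip1 from Akt2, and Pik3cg and Pik3ca from all the others. Exon lengths come from GENCODE mouse release M21, which describes another build than the counts.

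**Figure D1:**
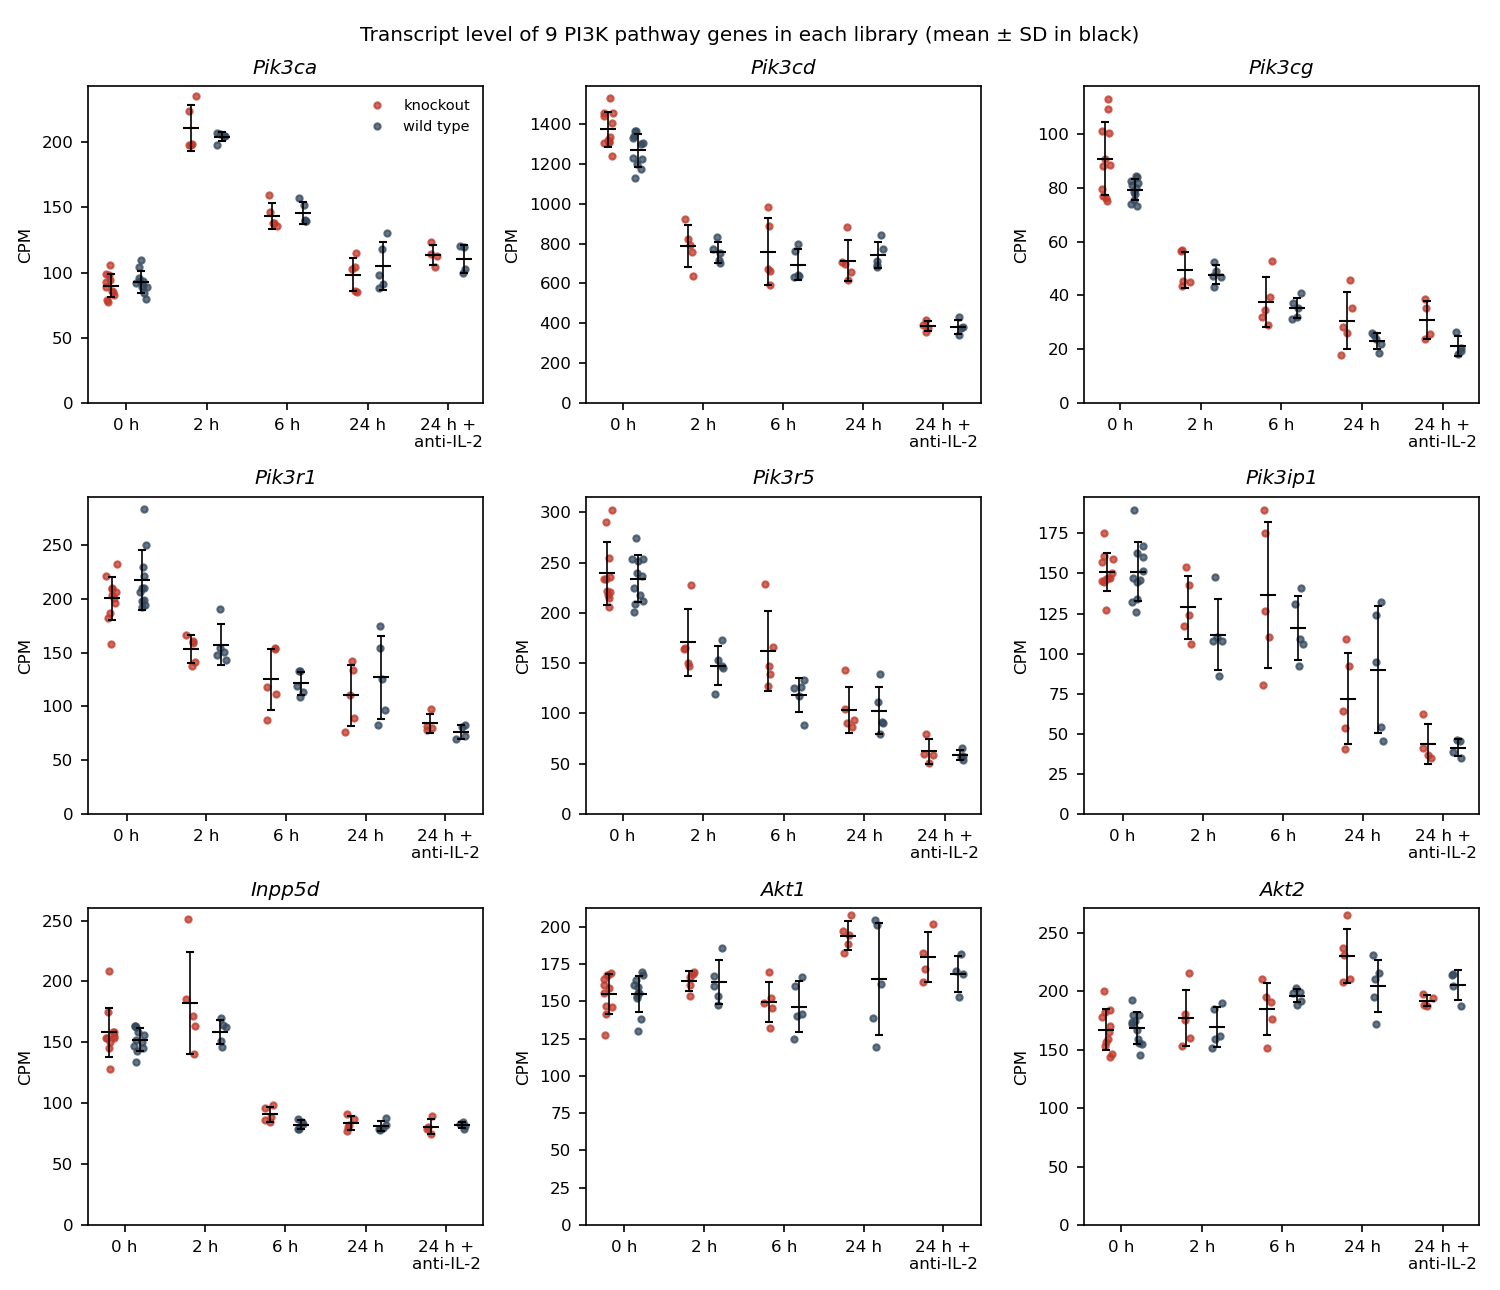
CPM (y axis, from 0) of each of the 9 genes in every library (points) by time and antibody (x axis), knockout left of wild type, with the mean and SD in black. Pik3ca peaks at 2 h, Pik3cd, Pik3cg, Pik3r1 and Pik3r5 sit lower after stimulation, Inpp5d drops between 2 h and 6 h, and the knockout and wild-type points overlap in every panel and group.

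The catalytic subunits moved in opposite directions during the first hours of stimulation. Pik3cd, the p110δ gene, had in knockout cells at 0 h a lowest of 1239, a median of 1333 and a highest of 1531 CPM, and in wild-type cells a lowest of 1127, a median of 1299 and a highest of 1364 CPM. At 2 h its levels were 638, 755, 792, 823 and 925 CPM in the 5 knockout and 704, 719.7, 751, 771 and 836 CPM in the 5 wild-type libraries. At 6 h they were 590.3, 662, 674, 887 and 985 CPM in knockout, against 631, 637, 644, 762 and 797 CPM in wild-type libraries, and at 24 h 617, 658, 697, 709.5 and 884 CPM in knockout, against 685, 693, 713, 775 and 842 CPM in wild-type libraries. No stimulated library of either genotype reached the lowest 0 h library. The log2 difference from 0 h was -0.87 ± 0.09 at 2 h, -0.87 ± 0.09 at 6 h and -0.87 ± 0.09 at 24 h in knockout cells (SE, adjusted p = 7.3e-12, 1.4e-11 and 2.3e-12). In wild-type cells it was -0.81 ± 0.09, -0.89 ± 0.09 and -0.72 ± 0.09 at these times (adjusted p = 5.8e-11, 5.3e-12 and 7.5e-10). These tests, and all those across genes below, are edgeR's quasi-likelihood test with Benjamini-Hochberg adjustment over every gene tested, called at an adjusted p under 0.05.

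Pik3cg, the p110γ gene, fell further with time. At 0 h it had a lowest of 75.1, a median of 88.4 and a highest of 113 CPM in knockout libraries and a lowest of 73.1, a median of 80.0 and a highest of 84.2 CPM in wild-type libraries. The 2 h libraries read 43.5, 44.9, 45.3, 56.7 and 56.9 CPM in knockout and 43.1, 46.7, 47.3, 49.0 and 52.6 CPM in wild-type libraries. At 24 h it read 17.8, 26.02, 28.2, 35.3 and 45.8 CPM in knockout and 18.6, 21.8, 24.0, 25.3 and 25.98 CPM in wild-type libraries, all below every 0 h library, with 6 h libraries between them in the mean at 37.5 ± 9.29 CPM in knockout and 35.3 ± 3.87 CPM in wild-type cells. The log2 difference from 0 h was -0.82 ± 0.13 at 2 h, -1.17 ± 0.13 at 6 h and -1.60 ± 0.13 at 24 h in knockout cells (adjusted p = 3.8e-07, 1.1e-10 and 1.1e-15), and -0.68 ± 0.13, -1.07 ± 0.13 and -1.82 ± 0.13 in wild-type cells (adjusted p = 1.1e-05, 8.3e-10 and 4.0e-17). The 24 h wild-type value corresponds to 0.283 of the 0 h level. The further fall at 6 h against 2 h was -0.35 in knockout and -0.39 in wild-type cells, and this call rested on single libraries. It was lost without any 1 of knockout replicates 4 or 5 at 2 h or 1, 2, 3 or 4 at 6 h (-0.35 to -0.26), and without wild-type replicate 1 at 2 h or 2 or 4 at 6 h (-0.36 to -0.35).

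Pik3ca, the gene of p110α, a form found in most tissues, was the 1 member that rose sharply. It had a lowest of 77.3, a median of 89.2 and a highest of 105 CPM in knockout libraries at 0 h and a lowest of 79.5, a median of 92.2 and a highest of 109.7 CPM in wild-type libraries. At 2 h it read 197, 198, 199, 224 and 235 CPM in knockout and 198, 204, 205, 206 and 207 CPM in wild-type libraries, and at 6 h 136, 138, 138, 146 and 159.6 CPM in knockout and 139, 139, 140.1, 152 and 157 CPM in wild-type libraries. Every 2 h and 6 h library lay above every 0 h library of its genotype, whereas the 24 h libraries, at 84.9 to 115 CPM in knockout and 87.7 to 130.4 CPM in wild-type cells, overlapped the 0 h range. The change was 2.27-fold in knockout (log2 1.18 ± 0.08, adjusted p = 1.0e-17) and 2.13-fold in wild-type cells at 2 h (log2 1.09 ± 0.08, adjusted p = 1.9e-16), and at 6 h the log2 difference was 0.68 ± 0.08 in knockout and 0.65 ± 0.08 in wild-type cells (adjusted p = 1.6e-09 and 4.7e-09). Between 2 h and 6 h it fell by 0.50 on the log2 scale in knockout and by 0.44 in wild-type cells. The 24 h differences of 0.19 ± 0.08 in knockout and 0.21 ± 0.08 in wild-type cells passed the test (adjusted p = 0.048 and 0.0304) but rested on single libraries and settings. The knockout call was lost without replicate 1, 2 or 3 at 24 h (0.15, 0.13 and 0.17), and the wild-type call without replicate 2 or 3 (0.12 and 0.17). With no filter on low counts both were lost, at 0.21 in knockout and 0.22 in wild-type cells, and the knockout call also with only the sets that hold both times (0.22).

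Per kb of exon, these opposite moves changed the make-up of the class I catalytic transcripts, counted over Pik3ca, Pik3cb, Pik3cd and Pik3cg. Pik3cd made up 90.9% ± 1.15 in knockout and 90.7% ± 0.768 in wild-type cells at 0 h (SD over libraries). Its share was 79.8% ± 2.50 in knockout and 79.8% ± 1.54 in wild-type cells at 2 h, then 84.3% ± 2.55 in knockout and 83.3% ± 2.22 in wild-type cells after 6 h, and 87.9% ± 1.32 in knockout and 88.6% ± 1.75 in wild-type cells after 24 h. Pik3ca went the other way, with 4.12% ± 0.552 in knockout and 4.58% ± 0.421 in wild-type cells at 0 h, 14.96% ± 2.61 in knockout and 14.9% ± 0.92 in wild-type cells at 2 h, and 8.38% ± 0.742 in knockout and 8.69% ± 1.72 in wild-type cells at 24 h. With anti-IL-2 the Pik3cd share at 24 h was 77.7% ± 0.78 in knockout and 79.4% ± 1.22 in wild-type cells. The p110δ transcript was thus the majority in every group.

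**Figure D2:**
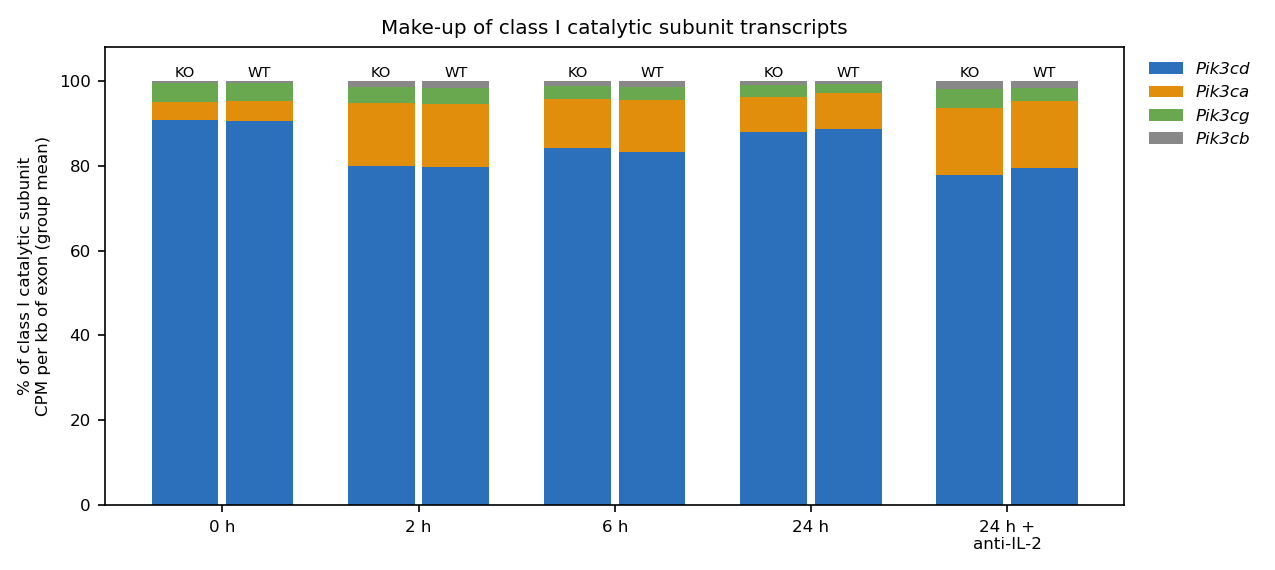
Mean share of CPM per kb of exon (y axis, percent) that each class I catalytic subunit gene takes in each group, knockout left of wild type, from 0 h to 24 h with anti-IL-2 (x axis). The Pik3cd segment is shortest at 2 h and in the anti-IL-2 groups, where the Pik3ca segment is longest.

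The promoters of 4 subunit genes are given here because Pik3cd, Pik3cg and Pik3r5 fell after stimulation while Pik3ca rose. RefSeq windows on GRCm38.p6, running 250 bases before to 50 bases after an annotated start, matched all 9 members with 17 windows, and of each gene below the window with the most motif matches is shown, 5′ to 3′ on the gene's strand. Capitals mark matches on either strand to GTAAACA (FOXO), GGGCGG (SP and KLF), CCGGAAG (ETS), CACGTG (MYC) or TTCNNNGAA (STAT), and overlapping matches run together. Counts per gene do not show which start was in use.
Pik3ca, chr3:32396815-32397114, plus strand: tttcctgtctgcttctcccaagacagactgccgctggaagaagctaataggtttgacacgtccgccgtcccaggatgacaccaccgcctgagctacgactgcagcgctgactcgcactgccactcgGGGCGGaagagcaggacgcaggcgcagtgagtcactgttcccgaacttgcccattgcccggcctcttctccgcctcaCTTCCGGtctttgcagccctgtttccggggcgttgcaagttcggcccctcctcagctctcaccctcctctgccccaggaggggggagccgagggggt
Pik3cd, chr4:149676040-149676339, minus strand: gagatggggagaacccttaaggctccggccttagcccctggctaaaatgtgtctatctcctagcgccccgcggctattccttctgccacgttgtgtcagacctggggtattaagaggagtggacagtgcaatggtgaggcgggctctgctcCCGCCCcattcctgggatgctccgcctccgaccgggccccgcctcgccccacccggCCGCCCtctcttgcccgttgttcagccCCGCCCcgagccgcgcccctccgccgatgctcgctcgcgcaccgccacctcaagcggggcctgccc
Pik3cg, chr12:32208421-32208720, minus strand: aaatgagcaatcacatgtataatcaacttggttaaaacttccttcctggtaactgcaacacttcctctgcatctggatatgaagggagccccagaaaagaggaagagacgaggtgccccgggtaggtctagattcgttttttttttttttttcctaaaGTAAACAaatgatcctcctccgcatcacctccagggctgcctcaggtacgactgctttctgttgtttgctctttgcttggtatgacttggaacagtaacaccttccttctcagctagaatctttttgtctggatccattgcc
Pik3r5, chr11:68431875-68432174, plus strand: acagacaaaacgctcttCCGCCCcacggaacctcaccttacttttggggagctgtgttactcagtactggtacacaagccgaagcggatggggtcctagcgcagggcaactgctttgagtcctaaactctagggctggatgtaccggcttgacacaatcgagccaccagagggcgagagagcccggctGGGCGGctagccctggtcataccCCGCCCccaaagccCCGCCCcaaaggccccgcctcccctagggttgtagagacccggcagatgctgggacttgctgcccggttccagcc
The Pik3cd window holds 3 and the Pik3r5 window 4 matches to GGGCGG, a run found in 35.7% of the 32851 RefSeq windows of this length and in 7 windows of 6 members. Pik3ca has 1 such match and 1 to the ETS motif, which 8.86% of all windows hold and no other member does. The Pik3cg window has 1 FOXO match, as has a window of Akt1, so 2 of the 17 member windows hold it, against 3.65% of all windows. The windows shown were picked for their matches, so only counts over all 17 stand beside these shares. The STAT motif (8.30% of windows) occurs in a window of Akt2, and the MYC motif (7.15%) in no member window. No motif was found in the windows of Pik3ip1 and Inpp5d. A match describes these letters and says nothing of binding.

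Both regulatory subunits fell. Pik3r5, the p101 partner of p110γ, had a lowest of 206, a median of 233 and a highest of 303 CPM in knockout libraries at 0 h and a lowest of 201, a median of 237 and a highest of 274 CPM in wild-type libraries. At 2 h it read 147, 149.9, 164, 165 and 228 CPM in knockout and 119, 145, 147, 153 and 173 CPM in wild-type libraries, and at 6 h 128, 139.7, 148, 166 and 228 CPM in knockout and 89.0, 118, 125, 126 and 133 CPM in wild-type libraries. The wild-type 2 h and 6 h libraries lay under every 0 h library, and 1 knockout library at each of these times, at 228 CPM, lay within the 0 h range. At 24 h the levels were 86.6, 90.3, 93.1, 104 and 143 CPM in knockout and 79.9, 90.6, 91.8, 111 and 139 CPM in wild-type libraries, below 0 h without overlap. The log2 difference was -0.48 ± 0.13, -0.50 ± 0.13 and -1.20 ± 0.13 at 2, 6 and 24 h in knockout cells (adjusted p = 0.0014, 9.2e-04 and 1.4e-11) and -0.66 ± 0.13, -0.93 ± 0.13 and -1.20 ± 0.13 in wild-type cells (adjusted p = 2.2e-05, 3.1e-08 and 1.4e-11). Pik3r1, which encodes p85α and its shorter forms, ranged over 158 to 232 CPM in knockout and 192 to 284 CPM in wild-type cells at 0 h, and 137 to 166 CPM in knockout and 143 to 190.1 CPM in wild-type cells after 2 h. It ranged over 87.6 to 155 CPM in knockout and 109 to 133 CPM in wild-type cells after 6 h, and 76.0 to 142 CPM in knockout and 82.9 to 174 CPM in wild-type cells at 24 h, overlapping 0 h in knockout cells at 2 h only. Its log2 difference was -0.36 ± 0.13, -0.60 ± 0.13 and -0.88 ± 0.13 in knockout cells (adjusted p = 0.0198, 1.8e-04 and 9.3e-08) and -0.43 ± 0.13, -0.77 ± 0.14 and -0.83 ± 0.13 in wild-type cells (adjusted p = 0.0054, 4.1e-06 and 3.9e-07). The knockout call at 2 h was lost without knockout replicate 2 or 3 at that time (-0.32 and -0.33).

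Pik3ip1, a membrane protein that binds and restrains the catalytic subunit, was lower at 24 h. It had a lowest of 127, a median of 147 and a highest of 175 CPM at 0 h in knockout libraries and a lowest of 126, a median of 147 and a highest of 189.7 CPM in wild-type libraries. At 2 h and 6 h the spread was wide, with 106 to 154 CPM in knockout and 86.3 to 148 CPM in wild-type libraries at 2 h, and 80.6 to 189.7 CPM in knockout and 92.4 to 141 CPM in wild-type libraries at 6 h. At 24 h it read 40.3, 53.7, 64.4, 92.5 and 109 CPM in knockout and 45.2, 54.2, 94.5, 124 and 132 CPM in wild-type libraries, which left no overlap with 0 h in knockout and some in wild-type cells. The difference from 0 h passed the test at 24 h, at -1.08 ± 0.18 in knockout and -0.84 ± 0.18 in wild-type cells (adjusted p = 1.4e-06 and 8.5e-05). The 2 h difference was -0.18 ± 0.18 in knockout and -0.37 ± 0.18 in wild-type cells, with -0.04 ± 0.18 in knockout and -0.28 ± 0.18 in wild-type cells at 6 h, none past the threshold (lowest adjusted p = 0.0811). Without wild-type replicate 5 at 2 h the wild-type value was -0.48 and passed (adjusted p = 0.0369). It also passed with a replicate block in set A, at -0.38 (adjusted p = 0.0389), and with no filter on low counts, at -0.36 (adjusted p = 0.00284). Without that filter the wild-type 6 h value passed too, at -0.29 (adjusted p = 0.0249). The exons of Pik3ip1 share 91 bases with Gm12592 on the opposite strand, and whether counting used strand is not given in the sources used here.

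Inpp5d, the SHIP-1 gene, fell between 2 h and 6 h. Its 0 h libraries had a lowest of 128, a median of 154 and a highest of 209 CPM in knockout and a lowest of 134, a median of 152 and a highest of 164 CPM in wild-type cells. After 2 h its levels were 140.3, 164, 171, 186 and 251 CPM in knockout and 146, 151, 162, 165 and 169.9 CPM in wild-type libraries. At 6 h it read 84.3, 86.4, 88.8, 96.3 and 98.3 CPM in knockout and 78.6, 78.6, 83.2, 84.6 and 86.9 CPM in wild-type libraries. All 6 h and 24 h libraries lay under all 0 h and 2 h libraries of their genotype, with 24 h values of 77.3 to 91.0 CPM in knockout and 78.0 to 87.9 CPM in wild-type cells. The difference at 6 h against 2 h was -0.95 ± 0.10 in knockout and -0.91 ± 0.10 in wild-type cells (adjusted p = 2.6e-11 and 1.3e-10). Against 0 h it was -0.79 ± 0.09 in knockout and -0.89 ± 0.09 in wild-type cells at 6 h, with -0.87 ± 0.09 in knockout and -0.88 ± 0.09 in wild-type cells for the 24 h libraries. The 2 h difference was 0.16 ± 0.09 in knockout and 0.02 ± 0.09 in wild-type cells, neither past the threshold (adjusted p = 0.12 and 0.877). The knockout value passed as 0.24 without knockout replicate 10 at 0 h and as 0.25 without replicate 5 at 2 h.

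The AKT kinases moved least, with group means of Akt1 between 147 and 194 CPM and of Akt2 between 167 and 230.3 CPM over the 10 groups. Akt1 averaged 155 ± 13.3 CPM in knockout and 155 ± 11.9 CPM in wild-type cells at 0 h, and at 24 h it read 182, 188, 194, 197 and 208 CPM in knockout and 119.5, 139, 161, 201 and 205 CPM in wild-type libraries. All 5 knockout libraries at 24 h lay above the 0 h range, and the wild-type libraries spread on both sides of it. The 24 h difference from 0 h was 0.37 ± 0.09 in knockout cells (adjusted p = 3.5e-04) and 0.11 ± 0.09 in wild-type cells (adjusted p = 0.308, and 0.22 and past the threshold without wild-type replicate 2 at 24 h). The interaction of genotype and time was 0.26 ± 0.12 and did not pass (adjusted p = 0.382). Akt2 averaged 167 ± 17.5 CPM in knockout and 169 ± 13.6 CPM in wild-type cells at 0 h, and 230.3 ± 23.4 CPM in knockout and 205 ± 22.3 CPM in wild-type cells at 24 h. Its difference from 0 h was 0.22 ± 0.09 at 6 h and 0.47 ± 0.08 at 24 h in knockout cells (adjusted p = 0.0331 and 1.8e-06), and 0.28 ± 0.08 and 0.27 ± 0.08 in wild-type cells (adjusted p = 0.00452 and 0.00452). The knockout call at 6 h was lost without knockout replicate 10 at 0 h or replicate 2 or 3 at 6 h (0.19, 0.18 and 0.21), and with no filter on low counts (0.22). At 6 h against 2 h Akt2 was called in wild-type cells (0.25 ± 0.09, adjusted p = 0.0283), a call lost without wild-type replicate 1, 2 or 4 at 2 h or replicate 1 at 6 h (0.22 to 0.24) and with no filter (0.23). Pik3r1 at 6 h against 2 h missed the threshold in wild-type cells (-0.33 ± 0.14, adjusted p = 0.0686) and passed by DESeq2, with no filter, in the sets that hold both times and with the replicate block (-0.35 to -0.33).

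Counted together, 5 of the 9 members were called at 2 h against 0 h in knockout cells, where 50.4% of all genes tested were. Of these 1 was higher and 4 lower, beside 24.7% of all genes higher and 25.7% lower. In wild-type cells the count was again 5, beside 49.5% of all genes, with 1 higher and 4 lower, beside 24.1% of all genes higher and 25.4% lower. At 6 h 7 members were called in each genotype, 2 higher and 5 lower. All genes gave 45.7% called in knockout cells, 24.2% higher and 21.5% lower, and 46.2% in wild-type cells, 23.5% higher and 22.7% lower. At 24 h 9 members were called in knockout cells, 3 higher and 6 lower, beside 60.8% of all genes, 28.7% higher and 32% lower. Wild-type cells gave 8, 2 higher and 6 lower, beside 57.3% of all genes, 26.9% higher and 30.4% lower. At 6 h against 2 h 3 members were called in knockout cells, all lower, beside 31.8% of all genes called and 14.6% lower. Wild-type cells gave 4, 1 higher and 3 lower, beside 31.7% of all genes, 16% higher and 15.7% lower. The counts at 2 h and at 6 h against 2 h thus stood near the share of all genes. The median log2 difference of the members at 2, 6 and 24 h was -0.18, -0.50 and -0.87 in knockout cells, beside -0.094, -0.00024 and -0.11 for all genes, and -0.37, -0.77 and -0.83 in wild-type cells, beside -0.082, -0.02 and -0.094. The times share the 0 h libraries and are fitted in 1 model with library set as a term.

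**Figure D3:**
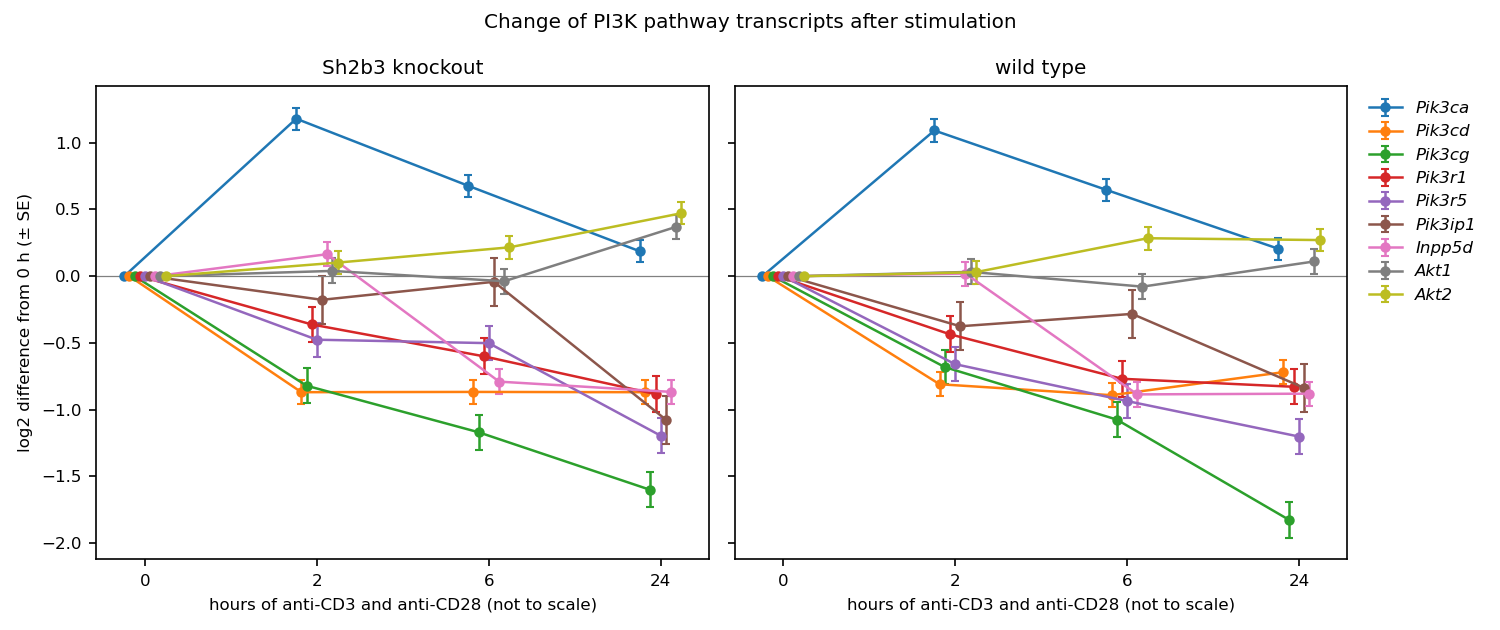
Log2 difference from 0 h with its SE (y axis) at 0, 2, 6 and 24 h of stimulation (x axis, not to scale) for each gene, knockout left and wild type right. Pik3ca lies above 0 at 2 h in both panels, Pik3cd, Pik3cg, Pik3r1 and Pik3r5 lie below 0 at every later time, and Inpp5d lies near 0 at 2 h and below it at 6 and 24 h.

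No member was called between knockout and wild-type cells in any of the 5 genotype comparisons by edgeR, and none by DESeq2. Of all genes tested, 0.633% were called at 0 h, 0.0647% at 2 h, 0.0306% at 6 h, 0.372% at 24 h and 0.35% with anti-IL-2. Unadjusted p fell under 0.05 for 3 members at 0 h, for 0 at 2 h, and for 1 in each of the other 3 comparisons. The share of all genes with an unadjusted p under 0.05 was not counted, and the shares of called genes use the adjusted p. Knockout and wild-type libraries overlapped for every member in every comparison. A p that misses the threshold does not show that levels did not differ, and the intervals give the range the data allow. At 0 h, with 11 libraries a group, they were narrow: the 95% interval of the log2 difference ran over -0.15 to 0.06 for Pik3ca, -0.10 to 0.16 for Pik3r5, -0.10 to 0.10 for Pik3ip1, -0.06 to 0.17 for Inpp5d, -0.08 to 0.08 for Akt1 and -0.10 to 0.08 for Akt2. The 3 with an unadjusted p under 0.05 were Pik3cd at 0.11 ± 0.04 (adjusted p = 0.252), Pik3cg at 0.19 ± 0.06 (adjusted p = 0.174) and Pik3r1 at -0.12 ± 0.05 (adjusted p = 0.411).

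Pik3r5 at 6 h had the widest gap among stimulated cells without anti-IL-2, at 162 ± 39.7 CPM in knockout and 118 ± 17.2 CPM in wild-type cells (SD, n = 5 each), a log2 difference of 0.43 ± 0.15 with an interval of 0.10 to 0.76 (adjusted p = 0.795). The difference of its change from 0 h between the genotypes was 0.43 ± 0.16 (adjusted p = 0.874). Akt1 at 24 h differed by 0.25 ± 0.10 (adjusted p = 0.37). Its knockout libraries averaged 201 CPM in set B and 189 CPM in set C, and its wild-type libraries 203 CPM in set B and 139.9 CPM in set C, so the gap between genotypes was wider in set C. Mitochondrial transcripts took 1.79, 1.81 and 1.96% of counts in the set C knockout and 2.07, 2.82 and 3.63% in the set C wild-type libraries at 24 h, and 1.26 and 1.31% in the set B knockout and 1.41 and 1.62% in the set B wild-type libraries. Their part in the gap was not tested. No member's change from 0 h differed between the genotypes by edgeR or DESeq2 at 2, 6 or 24 h, where 0%, 0% and 0.14% of all genes were called by edgeR. Unadjusted p fell under 0.05 for 0, 1 and 1 member, and the share of all genes at that unadjusted threshold was not counted.

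Pik3cg missed the threshold in each genotype comparison, with log2 differences of 0.19 ± 0.06 at 0 h, 0.05 ± 0.10 at 2 h, 0.07 ± 0.15 at 6 h and 0.35 ± 0.18 at 24 h. Under IL-2 blockade it read 24.0, 25.7, 35.5 and 38.5 CPM in the 4 knockout and 18.05, 19.4, 20.4 and 26.5 CPM in the 4 wild-type libraries, and the highest wild-type library lay above the 2 lowest knockout libraries. The log2 difference was 0.55 ± 0.16 with an interval of 0.20 to 0.89 (adjusted p = 0.253). With no filter on low counts it was 0.54 and passed (adjusted p = 0.0133), and by DESeq2 it did not (adjusted p = 0.0836). At 0 h the difference within set A, B and C was 0.04, 0.26 and 0.35, and at 24 h it was -0.0018 within set B and 0.60 within set C. Pik3cg is on chromosome 12, where 12 of 458 tested genes were called between the genotypes at 0 h, 5 at 24 h, 7 with anti-IL-2, and 0 at 2 h and 6 h. In gene order the nearest of the 12 on one side of Pik3cg was Acp1, with 7 tested genes between, and on the other side Tmem121, with 352 between. Akt1 is on the same chromosome, where Tmem121 was nearest at 0 h with 16 tested genes between. At 24 h the nearest of the 5 was Trappc12 for both, with 11 tested genes between for Pik3cg and 342 for Akt1.

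**Figure D4:**
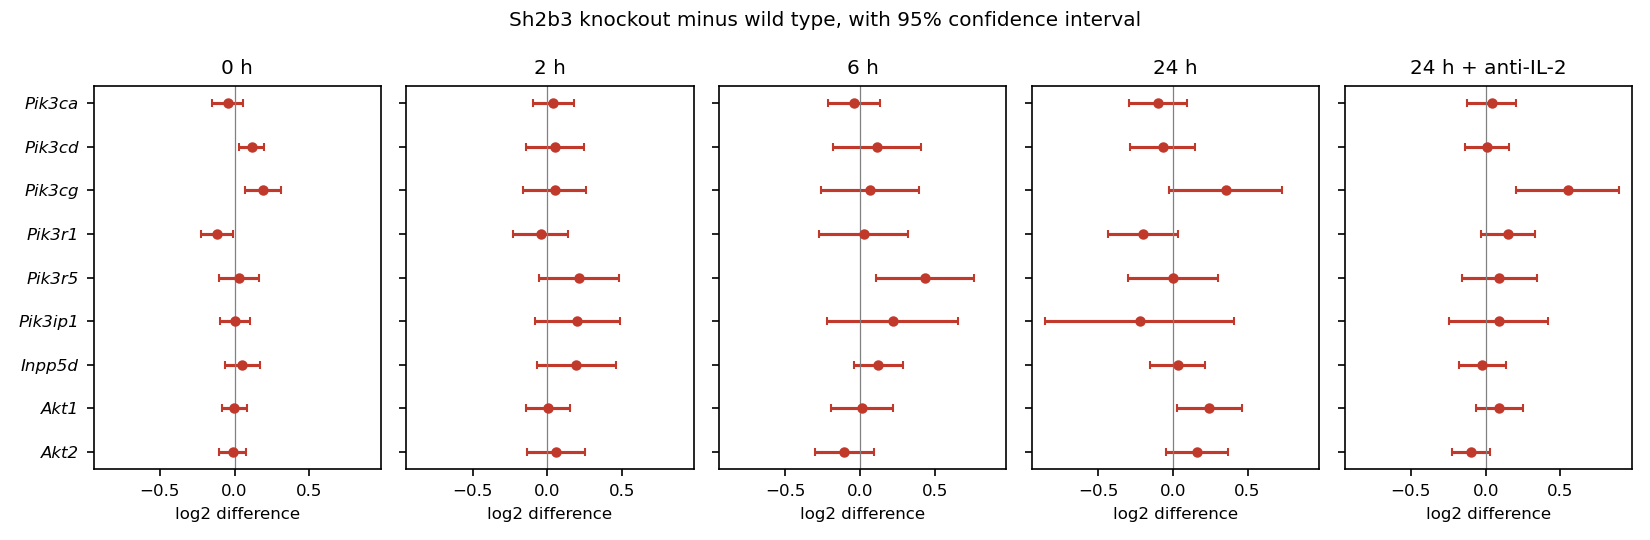
Log2 difference of knockout minus wild type (x axis) with its 95% confidence interval for each gene (rows) in the 4 time points and the anti-IL-2 condition (panels). Intervals are not adjusted for the number of genes and are narrowest at 0 h, where there are 11 libraries a group. Those of Pik3cg with anti-IL-2, of Pik3cd, Pik3cg and Pik3r1 at 0 h, of Pik3r5 at 6 h and of 1 gene at 24 h exclude 0.

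Blocking IL-2 went with lower Pik3cd at 24 h in both genotypes. The 4 knockout libraries with anti-IL-2 read 357, 376, 393 and 417 CPM, against 617, 658, 697, 709.5 and 884 CPM in the 5 without. The 4 wild-type libraries with anti-IL-2 read 343, 377, 380.4 and 430.3 CPM, against 685, 693, 713, 775 and 842 CPM without. Neither pair of groups overlapped, and the log2 difference was -0.89 ± 0.11 in knockout (0.541 of the level without, adjusted p = 5.8e-04) and -0.96 ± 0.10 in wild-type cells (0.515 of the level without, adjusted p = 6.8e-04). Pik3r5 read 50.6, 58.6, 59.6 and 79.9 CPM with anti-IL-2 and 86.6, 90.3, 93.1, 104 and 143 CPM without in knockout cells. In wild-type cells it read 54.2, 56.3, 57.4 and 66.0 CPM with anti-IL-2 and 79.9, 90.6, 91.8, 111 and 139 CPM without, again with no overlap in either genotype. Its log2 difference was -0.73 ± 0.17 in knockout and -0.81 ± 0.16 in wild-type cells (adjusted p = 0.0233 and 0.0148). The Pik3r5 calls were lost without knockout replicate 1, 3 or 4 with anti-IL-2 (-0.71, -0.71 and -0.65), and without wild-type replicate 2, 3 or 4 with anti-IL-2 (-0.81, -0.79 and -0.78). The knockout call was also lost against set B alone (-0.52). The anti-IL-2 libraries make up a library set of their own, so antibody and set cannot be told apart.

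Pik3ip1 read 34.6, 37.0, 41.0 and 62.2 CPM with anti-IL-2 in knockout libraries, and 35.1, 38.6, 45.5 and 46.1 CPM in wild-type libraries, within or just below the lower part of the 24 h range without it. Its difference was -0.72 ± 0.26 in knockout (adjusted p = 0.142) and -1.13 ± 0.29 in wild-type cells (adjusted p = 0.0467), and its response was not shown to differ between the genotypes (0.41 ± 0.46, adjusted p = 1). The wild-type libraries without anti-IL-2 split by set, with a mean of 49.7 CPM in set B and 117 CPM in set C. Against set B alone the wild-type difference was -0.26 and against set C alone -1.53, both chosen after seeing the data. The call was lost without any 1 of wild-type replicates 1, 2 or 3 without anti-IL-2 (-0.94, -1.11 and -0.99) or any 1 of the 4 with it (-1.19 to -1.06), and with no filter on low counts (-1.12). In knockout cells the difference passed without knockout replicate 4 at 24 h (-0.87) and against set C alone (-0.80). Pik3r1 read 77.9 to 97.3 CPM with anti-IL-2 and 76.0 to 142 CPM without in knockout cells, and 69.2 to 82.8 CPM with and 82.9 to 174 CPM without in wild-type cells. Its differences, -0.39 ± 0.17 in knockout and -0.74 ± 0.20 in wild-type cells, missed the threshold (adjusted p = 0.227 and 0.052). They passed without knockout replicate 4 at 24 h (-0.50), and without wild-type replicate 4 or 5 at 24 h (-0.87 and -0.83). Against set C alone both passed, at -0.62 in knockout and -1.02 in wild-type cells, and the wild-type value passed by DESeq2 (-0.76) and with its size factors (-0.76).

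With anti-IL-2, 2 of the 9 members were thus called in knockout cells, both lower, where 5.27% of all genes were called and 2.9% were lower, and 3 in wild-type cells, all lower, where 4.4% were called and 2.6% were lower. Besides Pik3cd, Pik3r5, Pik3ip1 and Pik3r1, whose values are given above, the members had adjusted p between 0.13 and 0.987 in knockout cells and between 0.688 and 1 in wild-type cells. Akt2 in knockout cells, at 188, 188, 194 and 198 CPM with anti-IL-2 and 208, 210.2, 231, 237 and 265 CPM without, did not overlap but missed the threshold (-0.26 ± 0.09, adjusted p = 0.13). Pik3ca had differences of 0.21 ± 0.11 in knockout and 0.07 ± 0.13 in wild-type cells, and Inpp5d of -0.05 ± 0.10 in knockout and 0.01 ± 0.08 in wild-type cells. The median of the members was -0.26 in knockout cells, beside -0.0061 for all genes, and -0.14 in wild-type cells, beside 0.011. No member's response to anti-IL-2 differed between the genotypes by edgeR (unadjusted p under 0.05 for 0 members, and 0% of all genes called) or by DESeq2. The interval of that difference was -0.23 to 0.37 for Pik3cd and -0.41 to 0.58 for Pik3r5.

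**Figure D5:**
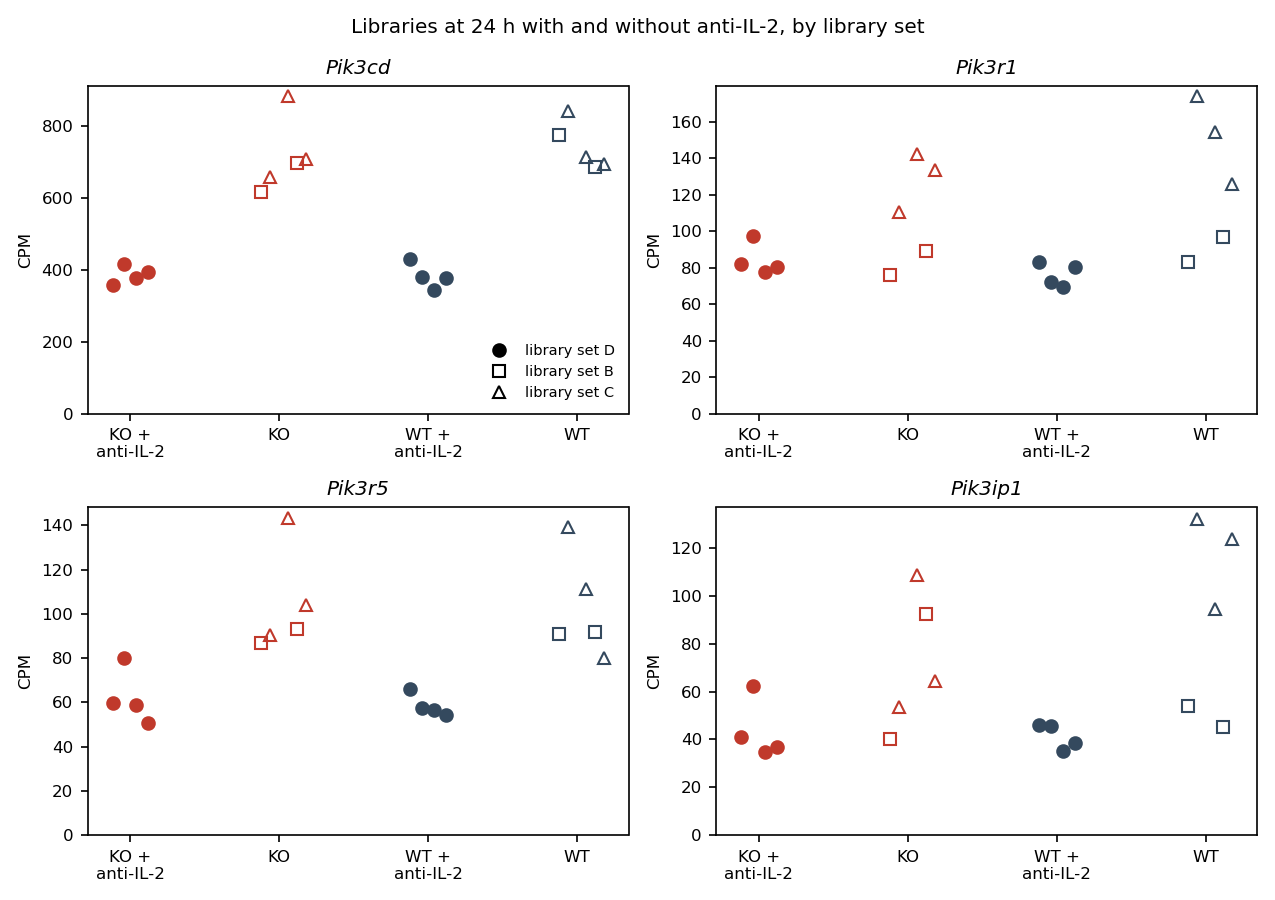
CPM (y axis, from 0) of Pik3cd, Pik3r1, Pik3r5 and Pik3ip1 in each 24 h library, with anti-IL-2 (filled) left of without (open) for knockout and wild type (x axis), marker shape giving the library set. Filled and open points of Pik3cd and Pik3r5 do not overlap, and the open wild-type points of Pik3r1 and Pik3ip1 split by set.

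The rest of the pathway, 58 genes in 8 lists, moved in both directions. At 2 h against 0 h 21 rose and 18 fell of 57 tested in knockout cells, and 21 rose and 20 fell in wild-type cells. Of all genes, 24.7% rose and 25.7% fell in knockout and 24.1% rose and 25.4% fell in wild-type cells, and the counts per list stand beside the same shares. Among class I subunits outside the 9, the catalytic Pik3cb rose at 2 h (knockout 0.77 ± 0.18, wild type 0.85 ± 0.18), whereas the p85β gene Pik3r2 (knockout -1.83 ± 0.18, wild type -1.59 ± 0.18) and the p55γ gene Pik3r3 (knockout -1.63 ± 0.39, wild type -1.37 ± 0.39) fell. Of the 8 other phosphatases, 3 rose and 4 fell in knockout cells and 3 rose and 3 fell in wild-type cells, led by Phlpp1, which dephosphorylates AKT (knockout 2.14 ± 0.12, wild type 2.10 ± 0.11). Of the 13 AKT and mTOR kinases and regulators, 5 rose and 4 fell in each genotype, among them Sgk1, a kinase related to AKT (knockout -2.27 ± 0.16, wild type -2.48 ± 0.16). Of the 9 adaptors and receptors, 3 rose and 3 fell in knockout cells and 4 rose and 3 fell in wild-type cells. The receptors Cd28 (knockout 2.02 ± 0.13, wild type 2.15 ± 0.13) and Icos (knockout 1.90 ± 0.16, wild type 2.62 ± 0.15), which recruit PI3K, rose. Gab3 of the same list fell (knockout -1.38 ± 0.22, wild type -1.30 ± 0.22), as did Dok2 in both genotypes. Of 6 AKT substrates, 1 rose and 2 fell in knockout cells and 0 rose and 5 fell in wild-type cells, among them Foxo1 (knockout -0.74 ± 0.10, wild type -0.66 ± 0.10). Of 10 FOXO target genes, 6 rose and 2 fell in knockout cells and 5 rose and 2 fell in wild-type cells. Values are log2 differences from 0 h with their SE.

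At 24 h against 0 h, 8 of 57 were higher and 27 lower in knockout cells, beside 28.7% of all genes higher and 32% lower. In wild-type cells 10 were higher and 26 lower, beside 26.9% of all genes higher and 30.4% lower. The Tec-family kinase Txk fell (knockout -1.66 ± 0.11, wild type -1.67 ± 0.11), as did Foxo1 (knockout -1.46 ± 0.10, wild type -1.09 ± 0.10). Of the 10 FOXO target genes, 2 were higher and 5 lower in knockout cells and 2 higher and 4 lower in wild-type cells, beside the same shares. With anti-IL-2, 4 of 56 tested were higher and 6 lower in knockout cells, beside 2.37% of all genes higher and 2.9% lower. In wild-type cells 1 of 57 was higher and 8 lower, beside 1.8% of all genes higher and 2.6% lower. With the antibody 3 of the 10 FOXO target genes were lower in knockout and 5 in wild-type cells, beside the same shares, and none was higher. They include the transcription factor Klf2 (knockout -1.45 ± 0.37, wild type -1.94 ± 0.39), beside Btg1 (knockout -0.68 ± 0.11, wild type -0.75 ± 0.14). Mtor was higher (knockout 0.64 ± 0.11, wild type 0.76 ± 0.16). In wild-type cells 0 of the listed genes were called without any 1 of replicates 1, 2 or 3 with anti-IL-2, 1 without replicate 4 with it, and 4 without replicate 3 of those without it. In knockout cells 16 were called without replicate 4 of those without anti-IL-2, and 6, 6 and 5 without replicates 1, 3 and 4 with it. Against the set C libraries alone 20 were called in knockout and 30 in wild-type cells, and in wild-type cells 17 against set B alone, 15 by DESeq2 and 4 with no filter on low counts. Calls over all genes moved as well. In wild-type cells the 584 became 1344 by DESeq2, 676 with no filter and 145 to 1223 without 1 library. Over the settings other than leaving out a library they reached up to 3857. In knockout cells the 721 became 710 to 1616 over such settings, and 264 to 1092 without 1 library. Between the genotypes 0 of the listed genes were called by edgeR in 4 of the 5 comparisons, and 1 at 2 h, beside 0.0647% of all genes. This was Trat1, which encodes an adaptor of the T cell receptor (-0.89 ± 0.14, adjusted p = 0.0498). The Trat1 call was lost without any 1 of knockout replicates 1, 2 or 4 or wild-type replicates 1 to 4 at 2 h. With no filter on low counts 3 were called at 0 h, 4 at 2 h and 6 at 24 h, by DESeq2 4 at 2 h and 4 at 24 h, and without knockout replicate 5 at 24 h 6. Over all genes, the 81, 8 and 48 calls at 0, 2 and 24 h became 477, 230 and 362 with no filter. By DESeq2 they became 163, 122 and 232, and without 1 library 8 to 361 at 24 h.

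Across the 10 group means on the log2 CPM scale, several members that fell had similar profiles. Pearson's r was 0.954 for Pik3cd with Pik3r1, 0.953 for Pik3cd with Pik3r5 and 0.962 for Pik3r5 with Pik3ip1, whereas Pik3ca with Pik3cd gave -0.156 and Akt1 with Pik3cd -0.452. Among 9053 named genes compared, the most similar was Sh2d2a for Pik3ca (0.997), Smpdl3a for Pik3cd (0.992), Laptm5 for Pik3r1 (0.989), Klf2 for Pik3ip1 (0.995) and Pcsk7 for Inpp5d (0.988). For the 2 members with the widest range of group means, these were Oas2, Kctd18 and Whamm for Pik3cg (0.994, 0.987 and 0.985), and Txnip, Gmfg and Pced1b for Pik3r5 (0.994, 0.988 and 0.987). Akt1 and Akt2, whose range was narrow, had lower values with Lsm8 (0.940) and Dohh (0.956). The 10 points share library sets and the large difference between resting and stimulated cells, so these values describe shape over few groups.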

How the data were processed

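Poly(A) RNA of splenic CD8 T cells was sequenced in 60 libraries of 10 groups. The deposited values are raw read counts per gene, in 1 table made by the authors. Reads were aligned to GRCm39 with STAR 2.7.9a and counted with featureCounts 2.0.1, per the submitters' processing notes. Whether counting used strand is not given in the sources used here. Gene names and exon lengths were taken from GENCODE mouse release M21, and promoters from RefSeq.

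Groups follow genotype, time and treatment in the labels. Knockout and wild-type cells were compared at each time and with anti-IL-2, and anti-IL-2 libraries with the others at 24 h in each genotype, in fits of those groups only. Times and interactions with time were tested in 1 model of the 52 libraries without anti-IL-2. Library set was a term wherever groups held more than 1 set, except against anti-IL-2. Under R 4.3.3, edgeR 4.0.16 was used with filterByExpr (minimum count 10), TMM scaling and a robust quasi-likelihood F test. CPM values use TMM-scaled library sizes, and log2 levels a prior count of 2. P-values were adjusted by Benjamini-Hochberg over all genes tested, 12372 to 15762 a comparison. DESeq2 1.42.0, other scaling, no filter, set choices and leaving out single libraries were the alternatives. The scripts were tested on simulated counts. No 2 libraries of a group were duplicates.

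All 9 members enter the counts of every comparison, and some of their single values are not reported here. Other pathway genes are counted by fixed lists, naming up to 4 called per list by smallest adjusted p, and some of these are not reported here. The members, lists, neighbour rule, motifs and tests were chosen with earlier results of these data known. Every member had at least 344 counts in every library, and the spread between libraries sets the precision.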

Additional observations from a re-analysis of the deposited data

Results flagged for a closer look

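Of 72 sets of 4 to 10 libraries, each 1 member in 1 group, 2 held a library far from the rest, where chance flags about 1 in 20. Pik3r5 in knockout replicate 5 at 2 h stood at 228 CPM, with the other 4 at 147 to 165 CPM. Pik3r1 in wild-type replicate 1 at 2 h stood at 190.1 CPM, with the other 4 at 143 to 155 CPM.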

How the results depend on the processing

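Of 765 recomputed values other than those leaving out a library, 738 kept their direction and side of the threshold, 8 lost a call, 18 gained one and 1 reversed. Of 1449 that left out a library, 1405 kept both, 36 lost a call and 8 gained one. Among values not called in either setting, 38 and 93 more changed sign. The reversed value is Akt1 under anti-IL-2 in wild-type cells, 0.03 and not called, which was -0.26 (adjusted p = 0.0285) against library set B alone, a setting chosen after seeing the data. The cause was not tested. With no filter on low counts 1 member, Pik3cg, was called between knockout and wild-type cells with anti-IL-2, where the filtered count was 0. Against set C alone 4 members were called under anti-IL-2 in knockout cells, where the count was 2. Pik3ca passed against set B alone, at 0.42 in knockout and 0.31 in wild-type cells. Pik3cd under anti-IL-2 was called in all 14 settings in each genotype. Libraries were left out in turn, namely the stimulated libraries and, of the 22 at 0 h, knockout replicate 10 alone. This gave 1 to 4 called members under anti-IL-2 in each genotype. Against 0 h it gave 4 to 6 at 2 h, 6 to 7 at 6 h and 8 to 9 at 24 h in knockout cells, and 5 to 6, 7 and 7 to 8 in wild-type cells. At 6 h against 2 h it gave 2 to 3 in knockout and 2 to 4 in wild-type cells, and 0 in these runs of each genotype comparison and interaction. Over all genes, these runs at 2, 6 and 24 h against 0 h gave 7510 to 7816, 6683 to 7084 and 9156 to 9593 in knockout cells. Wild-type cells gave 7341 to 7470, 6820 to 7062 and 8648 to 8974. At 6 h against 2 h there were 4449 to 4934 in knockout and 4511 to 4682 in wild-type cells. Counts over all genes moved more in the genotype comparisons: the 81 at 0 h became 6 to 477 in other settings, the 8 at 2 h 4 to 230, the 4 at 6 h 4 to 28, the 48 at 24 h 3 to 362, and the 47 with anti-IL-2 47 to 191. Under anti-IL-2 they moved over 710 to 1616 in knockout cells, where 721 were reported, and 580 to 3857 in wild-type cells, where 584 were. Leaving out a library gave 137 at 0 h, in its 1 run, 3 to 63 at 2 h, 8 to 361 at 24 h and 10 to 76 with anti-IL-2 between genotypes, and 264 to 1092 in knockout and 145 to 1223 in wild-type cells under anti-IL-2. The 0, 0 and 22 genes of the interactions at 2, 6 and 24 h became up to 118, 123 and 281 with no filter on low counts.

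No paired analysis was possible between genotypes or with anti-IL-2 because the labels carry no number shared by those groups. In set A, library numbers 10 apart may join times: deviations of such libraries correlated over 0.1 in 10 of 15 pairs in knockout (median r 0.113, highest 0.492) and 0 of 15 in wild-type cells (median 0.0277). Other pairs had medians of -0.0192 in knockout and -0.0070 in wild-type cells, and a library correlated best with the one 10 apart in 22 of 30 cases in knockout and 17 of 30 in wild-type cells. This is a hint from the data that knockout libraries are joined across times. As not every pair passed 0.1, the block was kept as an alternative. With these numbers as a replicate block in set A, 5, 7 and 4 members were called in knockout cells at 2 h, at 6 h and at 6 h against 2 h, and 6, 7 and 6 in wild-type cells. Over the settings other than leaving out a library, the block among them, all genes called at 6 h against 2 h also moved. They ran over 4597 to 6059 in knockout cells, where 5016 were reported, and 4591 to 6038 in wild-type cells, where 5000 were. The share of all genes with the block alone is not reported here. The block added Pik3r1 at 6 h against 2 h in both genotypes, and in wild-type cells Pik3r5 at 6 h against 2 h and Pik3ip1 at 2 h.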

Other observations

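Some libraries stood at the edge of their group for several members at once. Knockout replicate 2 at 24 h was highest of its 5 libraries for 6 of the 9 members, and wild-type replicate 3 at 6 h was lowest for 5.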
